A study of Rattus norvegicus with 36 samples.

Results

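Of 13986 genes detected at a mean of at least 1 CPM (counts divided by the total count of a pool and scaled to a common total) in rat dorsal striatum, 66 (0.472%) stood apart in the Sal–Coc group alone, the rats that met cocaine on their last day of injections only. The count tables held 32402 Ensembl gene IDs. The level of a gene was log2(CPM + 0.5). A gene was a member when the 3 Sal–Coc pools lay all above or all below the 6 other pools, and when the Sal–Coc mean level differed by at least 0.4 from the mean of each other group. At most 300 genes were to be kept, those with the largest smaller difference (the smaller of the differences of Sal–Coc from Sal–Sal and from Coc–Coc), a limit that the 66 did not reach. Of the members, 8 were higher in Sal–Coc and 58 (87.9%) were lower. These values chose the genes, so every difference of Sal–Coc from the other groups given here describes the choice and carries no test.

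Male Sprague-Dawley rats, 8 weeks old, received repeated injections on successive days and were killed the day after these ended. The labels give Sal–Sal rats 15 saline injections and Coc–Coc rats 15 cocaine injections. They give Sal–Coc rats 13 of saline followed by 3 of cocaine. Sal–Coc thus has a total above the other groups in the labels, whereas the paper describes the same injection schedule for all groups. The labels were not corrected for this. RNA was sequenced from 9 pools, 3 per group and numbered 5, 6 and 7, each made from the tissue of a pair of rats and read as 4 technical replicates. Values therefore average over the rats of a pool, and the spread given is the spread between pools. Total counts per pool ran from 29870775 to 39493867, so that 1 CPM stood for between 29.9 and 39.5 counts.

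Cocaine blocks the dopamine transporter and so raises extracellular dopamine in the striatum, where projection neurons carry dopamine receptors of the D1 or the D2 class. The dorsal striatum takes part in movement and habit, and repeated cocaine changes the motor response to each further dose. In such designs, a group given the drug on the last day only allows a first day of exposure to be compared with repeated exposure. Both cocaine groups had a recent exposure. In bulk tissue, fewer cells of a type and less RNA per cell cannot be told apart.

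The IDs were deposited without gene names, and 0 of the 32402 matched the RefSeq rat table at hand. The members therefore could not be sorted into pathways or cell types, the tissue could not be checked against marker genes, and no member's promoter or protein is shown. The samples are labelled as dorsal striatum, but their extraction text names both nucleus accumbens, which is ventral striatum, and caudate putamen. The paper studied both regions and describes their extraction in a shared text, as nucleus accumbens or caudate putamen. The samples were taken as dorsal striatum, as labelled. The 2 members of each direction with the largest smaller difference are given by ID, and the others by counts and ranges.

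Coc–Coc pool 5 stood apart from all other pools over the whole transcriptome. Its highest Spearman correlation with any pool was 0.984, whereas the other 8 pools correlated at 0.990 to 0.996 with each other. Without it, the rule took 7 higher and 50 lower genes, and 43 of these were among the 66. Sal–Coc pools 5 and 7 had the fewest genes with a count, 19328 and 19394, against 19702 to 20000 in the other 7 pools including Sal–Coc pool 6. The part of these differences between pools in the results below was not tested.

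More genes lay below than above the other pools before any limit on size. All 3 Sal–Coc pools lay beyond the 6 others for 479 genes (3.42%), of which 123 (0.879%) were above and 356 (2.55%) were below. The limit of 0.4 kept 8 of the 123 (0.0572% of genes tested) and 58 of the 356 (0.415%). Over all 13986 genes, the Sal–Coc mean was below the Sal–Sal mean for 63% and below the Coc–Coc mean for 55.3%, with median differences of −0.04 and −0.02. These levels used unscaled pool totals. TMM factors, which multiply these totals in the edgeR fit, were 1.016, 1.015 and 1.036 in Sal–Sal pools 5, 6 and 7. They were 0.977, 1.002 and 0.976 in the Sal–Coc pools, and 1.030, 0.961 and 0.990 in the Coc–Coc pools. Applying them would raise Sal–Coc levels relative to Sal–Sal. The part of scaling in these shares, and in the 356 against 123 genes, was not tested. With TMM scaling the rule took 11 higher and 50 lower genes.

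The same rule set on the other groups took different numbers of genes. Coc–Coc stood apart from both other groups for 21 genes, 9 higher and 12 lower, and Sal–Sal stood apart for 76 genes, 71 higher and 5 lower. Sal–Coc thus had its members mostly on the low side, and Sal–Sal had its own mostly on the high side. These counts come from the same 9 pools and are not independent of each other.

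**Figure D1:**
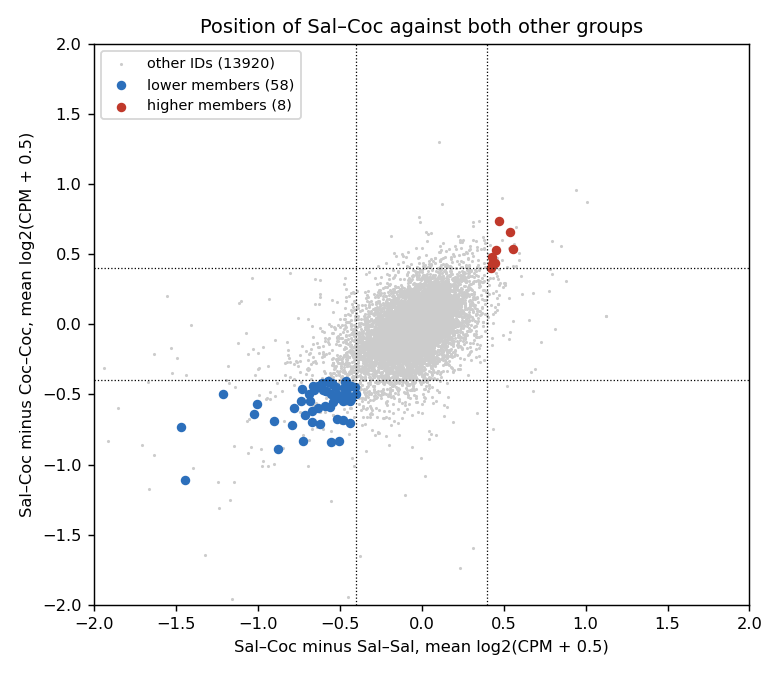
Each point is 1 gene ID with a mean of at least 1 CPM, with the Sal–Coc minus Sal–Sal difference on the x axis and the Sal–Coc minus Coc–Coc difference on the y axis, both in mean log2(CPM + 0.5), with dotted lines at the limit of 0.4. The 58 lower members (blue) reach −1.47 on the x axis, the 8 higher members (red) reach 0.56, and 3 other IDs lie outside the axes.

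The 58 lower members had a median difference from Sal–Sal of −0.56 on the log2 scale (range −1.47 to −0.40), and 5 of them differed by 1 or more. Against Coc–Coc their median was −0.52 (range −1.11 to −0.40), and 1 of them differed by 1 or more. Their levels spanned 1.04 to 283 CPM, with a median of 8.33 CPM, below the median of 23.2 CPM over all genes that passed the level limit. Of the 58, 23 lay between 1 and 5 CPM (39.7%, against 18.6% of all genes) and 4 lay at 100 CPM or more (6.9%, against 14.3%). Lower members made up 0.882% of the genes between 1 and 5 CPM and 0.201% of those at 100 CPM or more.

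The 8 higher members had lower levels and, in log2(CPM + 0.5), smaller median differences. They exceeded Sal–Sal by a median of 0.45 (range 0.42 to 0.56) and Coc–Coc by 0.51 (range 0.41 to 0.74). In the edgeR fit described below, this order of size was reversed. Median fitted differences of Sal–Coc from Sal–Sal were 0.61 for higher members and −0.55 for lower members. Those of Coc–Coc from Sal–Coc were −0.64 for higher members and 0.57 for lower members. Levels of the higher members ran from 1.06 to 12.1 CPM, 6 of them were below 5 CPM, and none reached 20 CPM. Higher members made up 0.23% of the genes between 1 and 5 CPM and 0.0523% of those between 5 and 20 CPM.

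In Coc–Coc, most members lay close to Sal–Sal, as most genes did. The Coc–Coc minus Sal–Sal difference was under 0.2 in size for 47 of the 58 lower members (81%), for 7 of the 8 higher members and for 80.2% of all genes. Its median was −0.04 for the lower members and −0.03 for the higher members, against −0.03 over all genes. Coc–Coc was below Sal–Sal for 35 lower members (60.3%, against 59% of all genes) and above it for 23. For 3 of the 58 lower members Coc–Coc also lay at least 0.4 below Sal–Sal, with differences down to −0.74. These were thus not low after a single cocaine day only. Over all 13986 genes, 491 had a Coc–Coc minus Sal–Sal difference of 0.4 or more in size, in either direction.

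**Figure D2:**
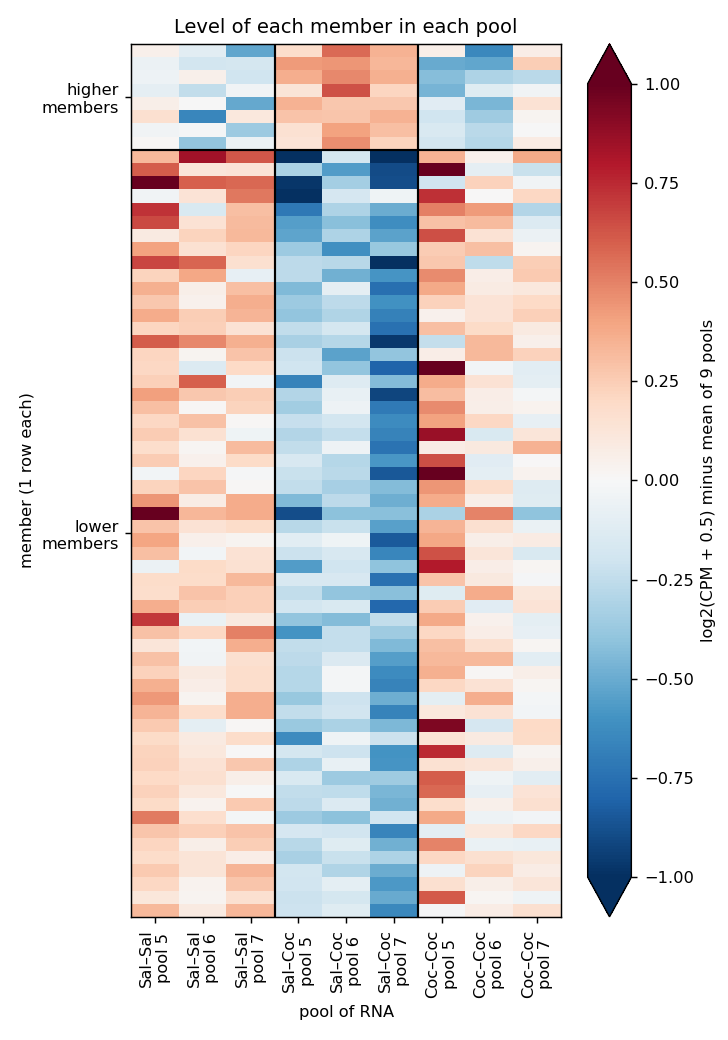
Each row is 1 member and each column 1 pool, and colour gives log2(CPM + 0.5) minus the gene's mean over the 9 pools, with values past 1 in size drawn in the end colours. The 8 higher members are red and the 58 lower members blue across the 3 Sal–Coc columns, and the deepest blue falls mostly in Sal–Coc pool 7.

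The Sal–Coc pools did not contribute equally to the lower members. Centred on each gene's mean, the median level was −0.28 in Sal–Coc pool 5, −0.22 in pool 6 and −0.58 in pool 7. The same median was 0.26, 0.13 and 0.23 in Sal–Sal pools 5, 6 and 7, and 0.33, 0.09 and 0.03 in the corresponding Coc–Coc pools. Sal–Coc pool 7 was the farthest from the other groups for 43 of the 58 genes and pool 6 was the nearest for 39. On the other side, the nearest pool belonged to Coc–Coc for 43 genes and to Sal–Sal for 15.

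Lower members also varied more within groups than most genes. The median SD between pools, on the log2 scale, of lower members was 0.141 for Sal–Sal, 0.236 for Sal–Coc and 0.238 for Coc–Coc, against 0.091, 0.099 and 0.149 over all genes (n = 3 pools each). The step from the Sal–Coc pool nearest the others to the nearest other pool had a median of 0.124. It was under 0.05 for 14 lower members and 0.2 or more for 10. The median step was thus smaller than the median SD within Sal–Coc.

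For the higher members the centred medians were 0.23, 0.45 and 0.32 in Sal–Coc pools 5, 6 and 7. They were −0.01, −0.15 and −0.19 in Sal–Sal, and −0.19, −0.33 and 0.05 in Coc–Coc. Sal–Coc pool 6, the nearest pool for most lower members, was the farthest for 6 of the 8 higher members. Coc–Coc pool 7 was the nearest other pool for 6 of them. The step between nearest pools ran from 0.056 to 0.304, and 1 higher member reached 0.2.

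**Figure D3:**
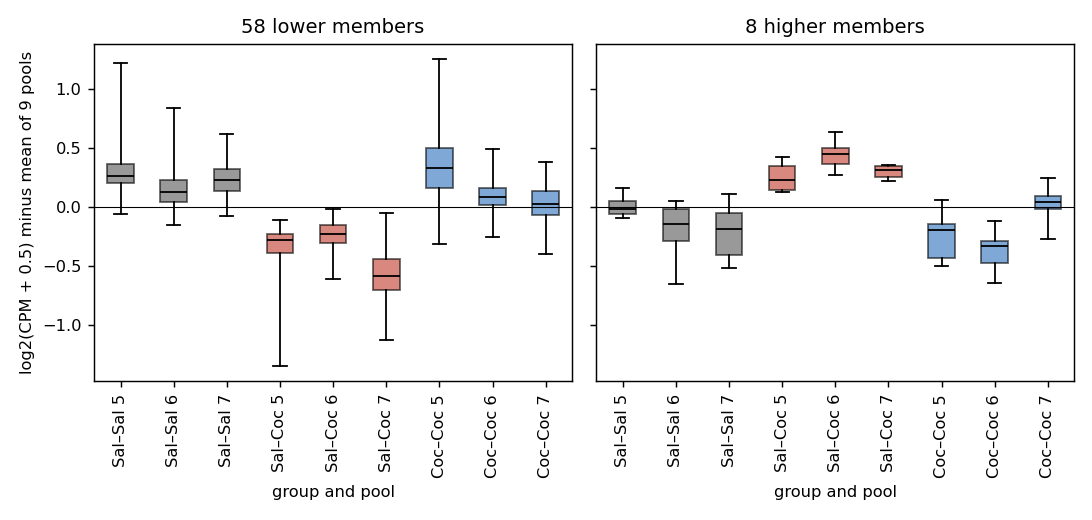
Boxes give the quartiles and median of log2(CPM + 0.5) minus the gene mean over members in each pool, and whiskers run from the lowest to the highest member. For the lower members the Sal–Coc medians are −0.28, −0.22 and −0.58, and for the higher members they are 0.23, 0.45 and 0.32.

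Technical replicates separated the groups for few members. Of the 58 lower members, 6 had all 12 Sal–Coc technical replicates below all 24 of the other groups, and of the 8 higher members 0 had them all above. These 6 genes had mean levels of 11.5 to 283 CPM, with a median of 134 CPM. Their differences from Sal–Sal ran from −1.44 to −0.57, and those from Coc–Coc from −1.11 to −0.40. Technical replicates share the RNA of a pool, so their separation says nothing about the spread between pools. The members were chosen for separated pools, and this separation was not counted over all genes. The counts thus describe the members and show no excess over other genes.

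ENSRNOG00000048230 had the largest smaller difference among the lower members. Its level was 14.8, 21.4 and 18.3 CPM in Sal–Sal pools 5, 6 and 7. It was 4.32, 10.4 and 5.5 CPM in the Sal–Coc pools, and 15.1, 12.1 and 15.4 CPM in the Coc–Coc pools. Sal–Coc pool 6 was high for its group but below every pool of the other groups, and the Coc–Coc pools overlapped the lowest Sal–Sal pool. Sal–Sal averaged 18.2 ± 3.29 CPM, Sal–Coc 6.72 ± 3.20 CPM and Coc–Coc 14.2 ± 1.84 CPM (SD, n = 3). All of its technical replicates were separated, the highest of Sal–Coc at 11.6 CPM and the lowest of Coc–Coc at 11.8 CPM. The fitted log2 difference of Sal–Coc from Sal–Sal was −1.38 ± 0.27 (SE), and that of Coc–Coc from Sal–Coc was 1.06 ± 0.27.

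ENSRNOG00000014143, also lower, was a gene of low level. The Sal–Sal pools stood at 2.54, 1.67 and 1.70 CPM, the Sal–Coc pools at 1.10, 0.858 and 0.572 CPM, and the Coc–Coc pools at 4.13, 1.37 and 1.21 CPM. The Sal–Coc values rested on 33, 32 and 21 counts. Coc–Coc pool 5 was far above the other pools, and the other Coc–Coc pools lay below all Sal–Sal pools and little above the highest Sal–Coc pool. The fitted difference of Coc–Coc from Sal–Coc was 1.39 ± 0.46 (SE) with Coc–Coc pool 5 and 0.64 without it. Sal–Coc differed from Sal–Sal by a fitted −1.18 ± 0.46.

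ENSRNOG00000024280 had the largest smaller difference among the higher members. The Sal–Sal pools held it at 1.46, 1.26 and 0.822 CPM, the Sal–Coc pools at 1.64, 2.31 and 1.91 CPM, and the Coc–Coc pools at 1.47, 0.712 and 1.48 CPM. Sal–Coc pool 5, with 49 counts, was close to the highest pools of both other groups, which overlapped each other. Sal–Coc exceeded Sal–Sal by a fitted 0.78 ± 0.30 (SE), and the fitted Coc–Coc minus Sal–Coc difference was −0.70 ± 0.30, and −0.45 without Coc–Coc pool 6.

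ENSRNOG00000020132, the next of the higher members, had more even Sal–Coc pools. Its Sal–Sal pools lay at 1.49, 1.32 and 1.33 CPM, its Sal–Coc pools at 2.28, 2.31 and 2.10 CPM, and its Coc–Coc pools at 0.962, 0.940 and 1.95 CPM. Coc–Coc pool 7 lay just under the Sal–Coc pools, while the other Coc–Coc pools were the lowest of all. The fitted difference of Coc–Coc from Sal–Coc was −0.81 ± 0.27 (SE), and −1.24 without Coc–Coc pool 7. Sal–Coc exceeded Sal–Sal by a fitted 0.74 ± 0.27.

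**Figure D4:**
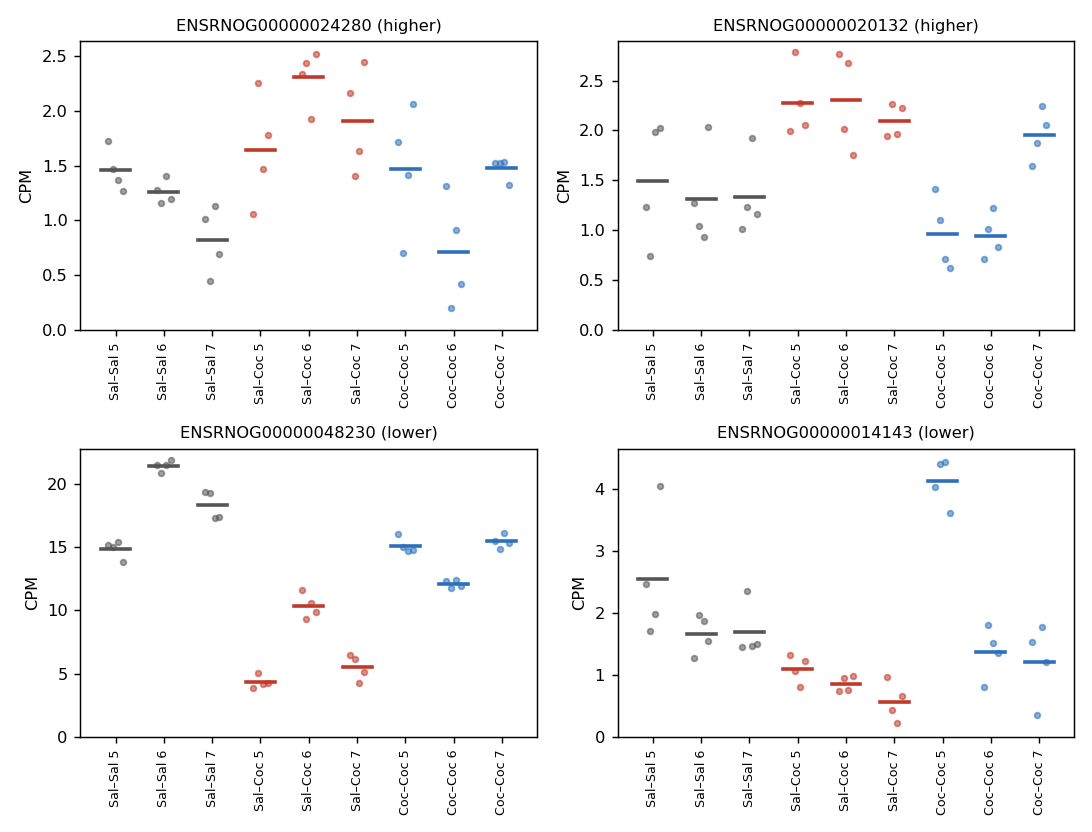
Points are the 4 technical replicates of each pool and bars the pool values, in CPM on axes that start at 0, for the 2 higher and the 2 lower members with the largest smaller difference. The technical replicates of ENSRNOG00000048230 in Sal–Coc stay at or below 11.6 CPM, whereas those of the other 3 genes overlap between groups.

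The most abundant lower member reached 348, 295 and 349 CPM in the Sal–Sal pools, 240, 255 and 178 CPM in the Sal–Coc pools, and 275, 293 and 311 CPM in the Coc–Coc pools. Its smaller difference was 0.4003, the least of all lower members. The most abundant higher member reached 11.4, 12.3 and 10.2 CPM in the Sal–Sal pools, 15.4, 16.7 and 15.3 CPM in the Sal–Coc pools, and 8.66, 9.45 and 9.70 CPM in the Coc–Coc pools. In both genes the Sal–Coc pools were separated from the others by construction of the rule, and in the higher one Coc–Coc lay below every Sal–Sal pool.

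The limit of 0.4 cut through a continuous range of differences. The 3 lower members just inside it had smaller differences of 0.4003, 0.401 and 0.402, and the 3 genes just outside had 0.396, 0.395 and 0.391. For the higher direction the values were 0.405, 0.426 and 0.430 inside and 0.388, 0.374 and 0.355 outside. A further 48 genes below and 14 genes above all other pools had a smaller difference between 0.3 and 0.4.

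No gene passed an adjusted p of 0.05 in edgeR's quasi-likelihood test over 15884 genes (0% called) in any of the 3 comparisons. At an unadjusted p under 0.05, 1265 genes (7.96%) passed between Sal–Coc and Sal–Sal, 1100 (6.93%) between Sal–Coc and Coc–Coc, and 1141 (7.18%) for Coc–Coc vs. Sal–Sal. Members made up 56, 64 and 3 of these. The rule used the same pools, so these counts of members describe the choice. DESeq2, run as an alternative over 23352 genes, called 59 genes (0.253%), 2 genes (0.00856%) and 24 genes (0.103%) in the same order, and 17, 2 and 0 of them were members. The 17 were 16 lower members and 1 higher member, against 0.206% of all genes called lower and 0.0471% called higher. These shares are over all 23352 genes with any count, many of them below the 1 CPM asked of members.

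To see how far the choice carried over to pools that it did not use, the rule was applied to 6 pools and read in the pools left out, which all bore the same number. With pools 5 left out, 90 lower genes were chosen, and Sal–Coc pool 5 lay below both other left-out pools for 65 (72.2%), against 44.6% of all genes. With pools 7 left out, 78 were chosen and 51 (65.4%) lay below, against 39.9%. With pools 6 left out, 319 lower and 17 higher genes met the rule, and the limit of 300 over both directions kept 286 and 14. Of the 286, 98 (34.3%) lay below, against 27.9%. The median Sal–Coc difference from the mean of the other left-out pools was −0.37, −0.40 and −0.01 with pools 5, 7 and 6 left out. Over all genes it was −0.07, −0.03 and 0.02 in the same order.

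In the higher direction, 39, 14 (after the limit of 300) and 41 genes were chosen with pools 5, 6 and 7 left out. The left-out Sal–Coc pool lay above both others for 17 (43.6%), 6 (42.9%) and 11 (26.8%), against 21.4%, 36.1% and 24.1% of all genes. The medians were 0.10, 0.01 and −0.01, against −0.07, 0.02 and −0.03 over all genes. Genes chosen as lower on pools 6 and 7, or 5 and 6, were thus mostly low in the pool left out, whereas those chosen on Sal–Coc pools 5 and 7 were near the other groups in pool 6. No test was made of these shares, and the shares over all genes were not matched for level. Each share rests on a single left-out pool per group, and genes that vary together are not separate trials. Sal–Coc pools 5 and 7 had a Spearman correlation of 0.996 with each other, against 0.993 and 0.992 with Sal–Coc pool 6. The part of this likeness in the shares was not tested.

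**Figure D5:**
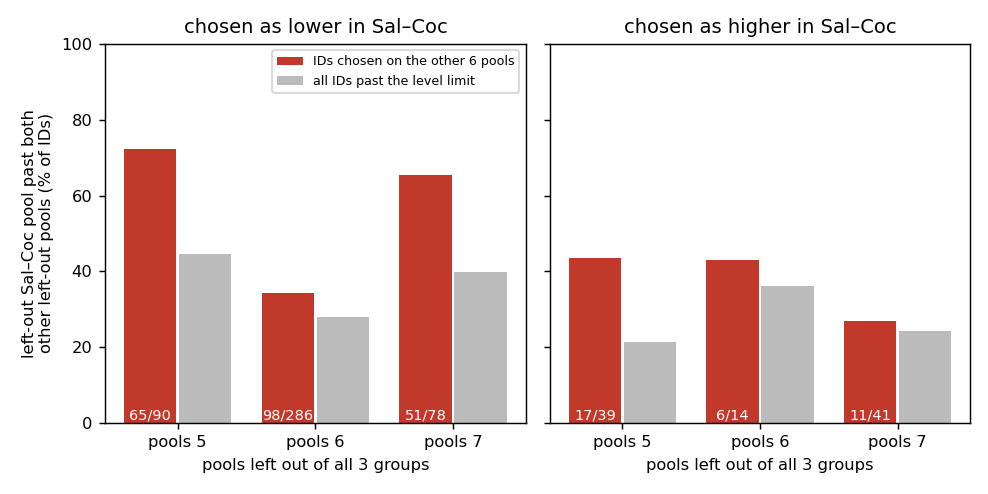
Red bars give the percent of genes chosen on 6 pools for which the left-out Sal–Coc pool lay past both other left-out pools in the chosen direction, with the counts written inside, and grey bars give the same percent over all genes past the level limit. In the lower direction the red bars stand at 72.2%, 34.3% and 65.4% with pools 5, 6 and 7 left out, and the grey bars at 44.6%, 27.9% and 39.9%.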

How the data were processed

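The authors sequenced stranded poly(A) libraries as single reads, aligned them with STAR to the Ensembl rat genome, removed reads that mapped more than once and deposited raw counts per gene. Genes with near-identical copies are thus undercounted. The submitters' processing notes name HTSeq 0.5.3 and bcl2fastq 2.18.0.12.

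Technical replicates differed by about the sampling noise (chi-square per degree of freedom 1.00 to 1.03 across pools), and their counts were summed per pool, so that n is 3 pools a group. A floor of 3 counts stood for 0.076 to 0.100 CPM and covers counting error only, since reads carried no molecular identifiers.

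The member rule is given with the results. The members and lists were chosen with earlier results of these data known. IDs printed were the 2 per direction with the largest smaller difference, as planned for IDs without names. Gene and marker lists could not be applied.

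All genes passing filterByExpr were fitted in edgeR 4.0.16 (R 4.3.3) with 1 mean per group, TMM scaling and two-sided quasi-likelihood tests, with Benjamini-Hochberg adjustment. Fitted differences come from this fit. Their SE was taken as the size of the difference divided by the square root of its F statistic. DESeq2 1.42.0 was an alternative. Both were also run on simulated data with known changes, and the outcome is not given here. The readings in left-out pools were added after seeing the data.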

Additional observations from a re-analysis of the deposited data

How the results depend on the processing

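The number of members depended on single pools and limits, while the lower direction held most members in each alternative run. Leaving out 1 pool gave 5 to 24 higher and 32 to 254 lower members. The count of lower members was 254 without Sal–Coc pool 6, 32 without Sal–Coc pool 7 and 97 without Coc–Coc pool 7. Higher members numbered 24, 20, 16, 15 and 5 without Sal–Coc pool 5, Sal–Coc pool 7, Coc–Coc pool 7, Sal–Sal pool 5 and Sal–Sal pool 7. Lower members made up 61.5% of the total without Sal–Coc pool 7, 78.4% without Sal–Coc pool 5 and 77.6% without Sal–Sal pool 5, against 87.9% with all pools. With all pools numbered 5, 6 or 7 left out, chosen after seeing the data, 39, 14 and 41 higher and 90, 286 and 78 lower genes were taken, where the limit of 300 genes had reduced those without pools 6 from 17 and 319. The cause was not tested.

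A pseudocount of 2 gave 1 higher and 34 lower members, and a mean of at least 5 CPM gave 2 and 35. A limit of 0.3 gave 22 and 106, and a limit of 0.5 gave 2 and 26. Technical replicate a alone gave 19 and 74, and 31 of these 93 were among the 66. TMM scaling gave 11 and 50, with 53 shared, and a mean of at least 0.1 CPM gave 10 and 76. Asking for at least 10 counts in every pool, added after seeing the data, kept all 66.

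DESeq2 called 59 genes between Sal–Coc and Sal–Sal, 2 between Sal–Coc and Coc–Coc, and 24 for Coc–Coc vs. Sal–Sal, where edgeR called 0. Without a filter on low counts, edgeR called 2 in the last. Leaving out 1 pool gave 0 to 0, 0 to 0 and 0 to 6 calls, with 4 without Coc–Coc pool 5 and 6 without Coc–Coc pool 6. With pool number as a replicate block, edgeR called 0 in each comparison (1129, 1046 and 1079 at an unadjusted p under 0.05). Deviations of same-numbered pools correlated at −0.26 to 0.15, with 2 of 9 pairs over 0.1, so the numbers were not taken to pair the pools. The 4 named genes were chosen for separated pools, so the direction of their differences could hardly change and is no support. Their fitted differences had the same direction under all 104 alternatives, and 100 lay within 1 SD. The exceptions not given above were those of ENSRNOG00000048230 without Sal–Coc pool 6, −1.83 against Sal–Sal and 1.5 for Coc–Coc against it.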
